A study of Drosophila melanogaster with 12 samples.

Results

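The comparison described here set the ovaries of 3 su(Hw) mutant genotypes, as 1 mean, against ovaries of wild type, and asked what separates wild type from every mutant. It used all 12 arrays of the series: 9 from mutants and 3 from wild type, 3 for each of the 4 genotypes. The mutant genotypes were su(Hw)f/su(Hw)v (f/v), which is fertile, and su(Hw)2/su(Hw)v (2/v) and su(Hw)Pb/su(Hw)2 (Pb/2), which are sterile. The f/v and 2/v females share the v allele, and the 2/v and Pb/2 females share the 2 allele. Wild type (WT) was Canton S. Since the sources used here do not give the genetic background of the mutants, loss of su(Hw) function and strain background cannot be told apart in this contrast. All ovaries came from virgin females aged 4 to 6 h. By the sample records, these hold egg chambers up to stage 8, before the stage 9 at which mutant egg chambers die. Which stages each genotype held was not tested here. Each replicate pooled about 150 pairs of ovaries. The source name and description of the samples speak of embryos, whereas title, tissue and protocol give ovary. All 8 germline markers examined (vas, nanos, osk, bam, aub, otu, orb and zpg) were above background on all 12 arrays. No label says that replicates came from separate cultures, so p-values measure only the spread between these samples.

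Su(Hw) is a zinc finger protein that binds DNA at many places in the fly genome. It is the founding component of the gypsy insulator, where it recruits partners such as Cp190 and Mod(mdg4), and in the ovary it also represses genes that are normally active in neurons. Females without it are sterile because egg chambers degenerate in mid-oogenesis, and failure to repress Rbp9, a relative of elav that codes for an RNA-binding protein, is a known part of that defect.

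Values are signals after quantile normalization, and a log2 fold change is the mean of the 3 mutant group means minus the WT mean of log2(signal + 16). With this offset of 16, the folds of dim genes come out too small. Calls rest on limma's adjusted p below 0.05 (Benjamini-Hochberg, 9109 genes), and background was a signal of 61.97. Between 57.8% and 63.6% of probe sets lay above background on each array. Correlations were 0.987 to 0.993 within a genotype, 0.964 to 0.980 between arrays of different mutants and 0.943 to 0.959 between a mutant and a WT array. Hybridization control transcripts, which are added to each sample, averaged 1.22 (f/v), 1.39 (2/v) and 1.45 (Pb/2) times the WT level.

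The mutated gene itself differed between the mutants. su(Hw) signal was 2912, 2708 and 2591 on the f/v arrays, 85.1, 129 and 81.4 on the 2/v arrays and 85.8, 153 and 212 on the Pb/2 arrays, against 3862, 3561 and 3999 on the WT arrays. All 9 mutant arrays were below all WT arrays, but f/v lay close to WT and the sterile genotypes lay near background. The change was -3.39 ± 0.20 (SE) for the mean of the mutants (limma, adjusted p = 5.31e-07). It was -5.08 in 2/v and -4.60 in Pb/2, whereas the f/v difference of -0.47 did not pass the test (limma, adjusted p = 0.171).

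Rbp9 did not separate WT from every mutant. It averaged 2665 (f/v), 9170 (2/v) and 8258 (Pb/2), against 3583 in WT. It was lower in f/v (-0.43) and higher in both sterile genotypes (1.35 and 1.21), and the positive mean of 0.71 ± 0.09 (limma, adjusted p = 0.000131) joins these opposite directions. A second probe set of Rbp9, at a mean signal of 82.4, gave 0.53, 0.03 and 0.65 in f/v, 2/v and Pb/2, a different order, and was not called in the mean (limma, adjusted p = 0.0583).

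Wild type differed from the mean of the mutants at 3977 genes, which is 43.7% of the 9109 tested. Of these, 2059 were higher in the mutants (22.6% of the genes tested) and 1918 lower (21.1%). A change of at least 2-fold was reached by 816 genes (8.96%), 381 higher (4.18%) and 435 lower (4.78%), and one of at least 4-fold by 179 genes (1.97%). The split depends on the scaling of the arrays: 51.8% of the called genes were higher after quantile normalization, 41.7% on the values as deposited, 72.3% after subtraction of the array median and 6.5% after scaling to the hybridization controls. The median of all genes moved by 0.011, -0.06, 0.18 and -0.47 under these scalings, and changes are given here relative to quantile normalization.

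Genes with large differences kept their direction under the other scalings. At 164 genes (1.8%) the change was called, was at least 4-fold, and all 9 mutant arrays lay on the same side of the 3 WT arrays. Of these, 79 were higher (0.867%) and 85 lower (0.933%). All 164 were called in the same direction under each of the other 3 scalings. The median of all genes moved by only -0.47 to 0.18 under them, so changes chosen as at least 4-fold could hardly reverse. Whether the number of such genes depends on the scaling was not tested. In 151 of the 164, each of the 3 mutants differed from WT by at least 2-fold.

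The 3 mutants did not depart from WT to the same extent. A test of differences among the mutants, which compares them with each other and not with WT, called 3276 genes (36.0%). These included 1961 of the 3977 genes called against WT (49.3%) and 1315 of the 5132 genes not called (25.6%). Both tests use the same estimate of the spread of each gene, so their calls are not independent. Of the 164 genes with large changes, 99 also differed among the mutants (60.4%). Of the 79 large rises, 55 also differed among the mutants (69.6%), and of the 85 large falls, 44 did (51.8%). Falls that end near background leave the mutants less room to differ, so the shares of rises and falls are not like for like. The group means of the mutants spanned less than 0.5 on the log2 scale in 45 of the 164 genes, 23 higher and 22 lower. The largest of the 3 mutant changes was in f/v for 48 genes, in 2/v for 62 and in Pb/2 for 54.

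**Figure D1:**
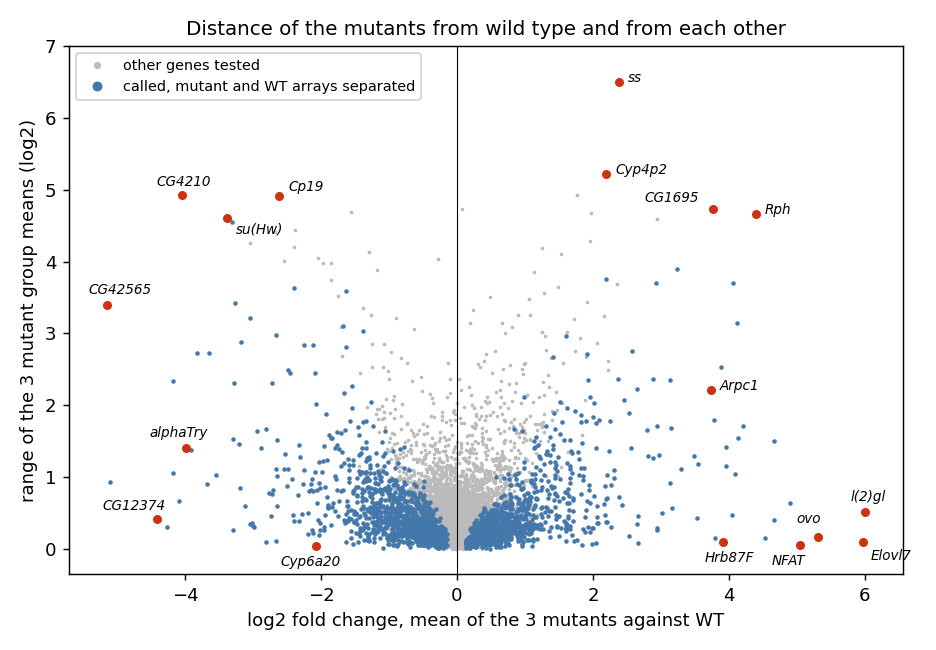
Each point is 1 of the 9109 genes. The horizontal axis is the log2 fold change of the mean of the 3 mutants against WT, and the vertical axis is the range of the 3 mutant group means on the log2 scale. Genes called with all mutant arrays on one side of the WT arrays are blue, and labelled genes are red. Elovl7, NFAT, ovo and Hrb87F lie far to the right and near 0 on the vertical axis. Rph, CG1695 and CG4210 are also far from WT (4.39, 3.76 and -4.05) but spread over more than 4 log2 units among the mutants.

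The genes that rose most were as high in the fertile mutant as in the sterile ones. l(2)gl, which encodes a tumour suppressor that sets apical-basal polarity, led the list. Its signal ranged from 2892 to 5875 on the mutant arrays (median 3822), against 42.6, 34.6 and 67.2 on the WT arrays. No mutant array came near a WT array, and the change was 6.00 ± 0.17 (limma, adjusted p = 1.86e-09), with 5.78 (f/v), 5.92 (2/v) and 6.30 (Pb/2). Elovl7, a member of the very long chain fatty acid elongase family, ranged from 2629 to 3047 on the mutant arrays (median 2724), against 18.6, 39.9 and 27.9 on the WT arrays. WT stayed below background throughout, so the mutants were at least 35.5-fold higher (limma, adjusted p = 1.22e-10).

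ovo, a zinc finger transcription factor that the female germline needs to survive, showed the same pattern. The mutant arrays held 4515 to 6862 (median 5461), against 98.9, 127 and 138 in WT, a change of 5.32 ± 0.12 (limma, adjusted p = 2.96e-10). The 3 mutant changes, 5.42, 5.26 and 5.27, could not be told apart (F test, adjusted p = 0.556). ovo, l(2)gl, Elovl7, NFAT, Hrb87F and sina were each measured by 1 tested probe set.

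Genes of calcineurin, the calcium-activated phosphatase that activates NFAT in vertebrates, were prominent. NFAT, the fly member of that transcription factor family, had 3334 to 4325 on the mutant arrays (median 3926), against 82.9, 136 and 92.9 in WT, and rose by 5.05 ± 0.12 (limma, adjusted p = 7e-10). CanB, the regulatory subunit, had 2329 to 4172 (median 3706), against 114, 80.5 and 93.2 in WT, and rose by 4.89 ± 0.10. CanA-14F, a catalytic subunit, had 298 to 557 (median 435), against 50.4, 84.4 and 60.1 in WT, and rose by 2.42 ± 0.12, whereas its other probe set, at a mean signal of 67.9, gave -0.49. Of the 7 members tested in the calcineurin list, these 3 rose. Pp2B-14D, another catalytic subunit gene, was called at -0.15, but it gave 0.10 under array median subtraction and lost its call in many other settings.

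Other large rises were equally even. Hrb87F, an RNA-binding protein of the hnRNP A family, had 15656 to 17823 on the mutant arrays (median 17127), against 1104, 1026 and 1213 in WT, and rose by 3.91 ± 0.06 (limma, adjusted p = 3.92e-11). sina, a ubiquitin ligase first found in the eye, rose by 3.80 ± 0.12, with 3428 to 4596 against 268, 228 and 360 in WT. PIP5K59B, a phosphatidylinositol phosphate kinase, rose by 2.67 ± 0.07, and its other probe sets gave 2.97 and 1.13. Among the genes known only by a CG number, CG33258 was below background in WT and at least 17.3-fold higher in the mutants, and CG2993 rose by 4.53 ± 0.11.

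**Figure D2:**
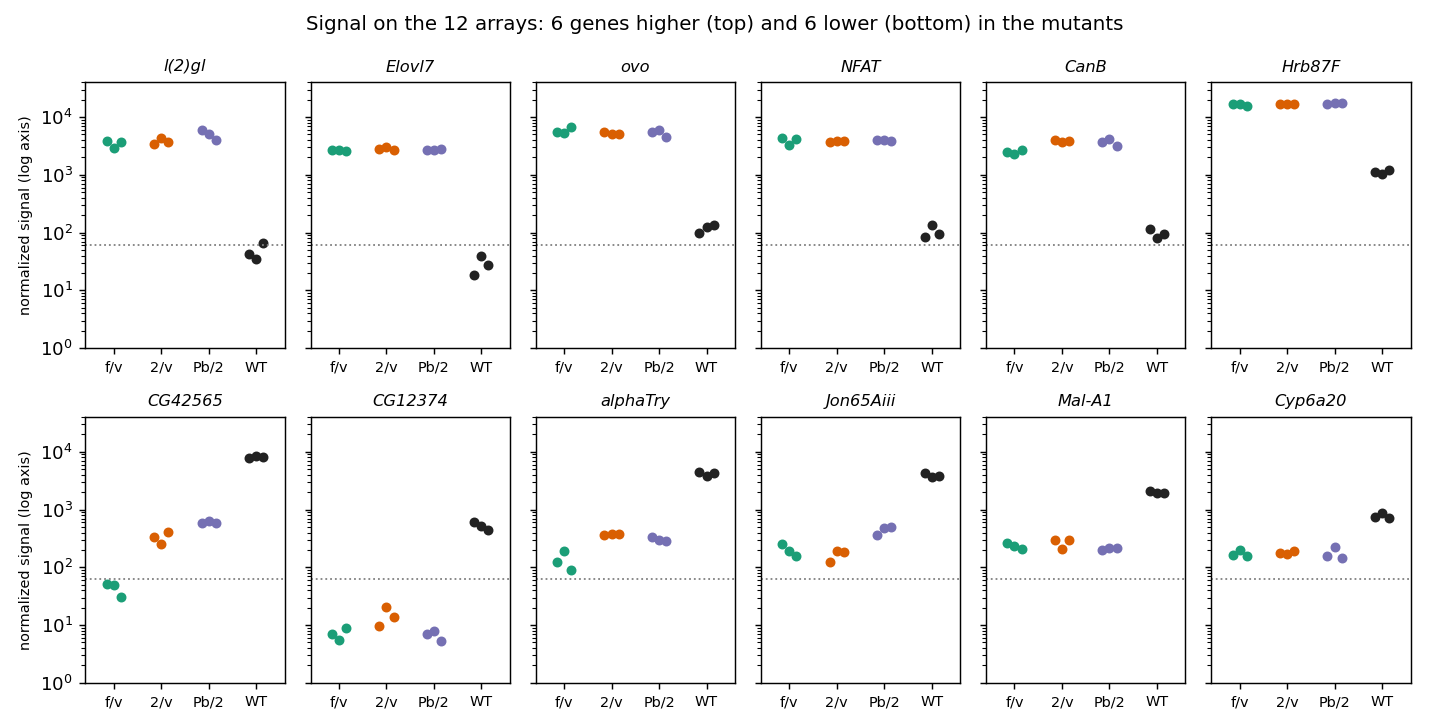
Normalized signal (log axis) of 12 genes on the 12 arrays, 1 point an array, by genotype, and the dotted line marks background. In the top row, the mutant arrays of l(2)gl, Elovl7, ovo, NFAT, CanB and Hrb87F lie together and far above the WT arrays. In the bottom row, all mutant arrays of CG42565, CG12374, alphaTry, Jon65Aiii, Mal-A1 and Cyp6a20 lie below the WT arrays.

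Some rises were present in every mutant but much larger in the sterile ones. Rph encodes rabphilin, a Rab effector of synaptic vesicle release. It averaged 379 (f/v), 10004 (2/v) and 8079 (Pb/2), against 136 in WT, which is 1.38, 6.05 and 5.74 on the log2 scale, and the mutants differed (F test in limma, adjusted p = 7.78e-10). CG1695 followed the same order, with 99.6, 2771 and 3019 in f/v, 2/v and Pb/2, against 56.9 in WT. tipE, an auxiliary subunit of the neuronal sodium channel, was 1408 (f/v), 3666 (2/v) and 3828 (Pb/2), against 159 in WT. CG15760 was below background in all WT arrays and had 124 (f/v), 1805 (2/v) and 1355 (Pb/2).

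The reverse order also occurred. Arpc1, a subunit of the Arp2/3 complex that nucleates branched actin filaments, averaged 5884 (f/v), 1258 (2/v) and 1430 (Pb/2), against 151 in WT, and rose by 3.73 ± 0.09. Of the 11 Arp2/3 genes and activators tested, 2 were called higher and 2 lower, and Arpc1 was the only one of them to differ by 2-fold or more. Cp15, a chorion protein gene, averaged 11009 (f/v), 1896 (2/v) and 3882 (Pb/2), against 279 in WT, and rose by 3.88 ± 0.14. Both genes were highest in the fertile mutant. mthl8, a receptor of the methuselah family, was below background in WT and at least 6.26-fold higher in the mutants, with 384, 910 and 300 in f/v, 2/v and Pb/2.

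Actbeta, a ligand of the activin branch of TGF-beta signalling, was at least 10.7-fold higher in the mutants, with 512, 1182 and 925 in f/v, 2/v and Pb/2 and all WT arrays below background. Hesr, a transcription factor of the Hairy/E(spl)-related class, rose by 3.79 ± 0.06, with 855, 3004 and 1715, against 104 in WT. In both genes 2/v was the highest mutant and f/v the lowest.

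Gypsy insertions in the visible genes y, ct and f gave mutations through which su(Hw) was first studied as a suppressor. These genes were picked after their values had been seen. y, which is needed for black pigment, had 196 to 573 on the mutant arrays (median 390), against 54.3, 54.5 and 5.88 in WT, so it was at least 4.80-fold higher (limma, adjusted p = 2.33e-05). f, an actin-bundling protein of bristles, had 1074 to 3499 (median 1940), against 77.6, 113 and 149 in WT, and rose by 3.95 ± 0.21, whereas its other probe set, at a mean signal of 46.1, gave -0.12. ct, a homeodomain factor of follicle cells, had 167 to 521 (median 422), against 794, 939 and 842 in WT, and fell by 1.28 on the log2 scale. The sources used here do not say whether any of these strains carries an insertion at these genes.

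Of the gene lists examined, digestive enzymes had the largest share of members called lower. Of 22 tested genes in a list of midgut enzymes, 21 fell, 20 of them by at least 2-fold, and for 20 every mutant array was below every WT array. The median change was -2.11, against 0.011 for all genes, and it was -2.22 (f/v), -1.76 (2/v) and -2.24 (Pb/2). The exception was the protease gene Jon44E, at 0.64 in the mean, which lay above WT in f/v and 2/v but not in Pb/2, and turned to -0.04 when scaled to the hybridization controls. The list was chosen with earlier results of these data known, so its direction is not independent evidence.

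The trypsin gene alphaTry had 89.9 to 379 on the mutant arrays (median 294), against 4436, 3883 and 4227 in WT, and fell by 3.99 on the log2 scale (limma, adjusted p = 2.53e-08). Jon65Aiii, a chymotrypsin-like protease, had 122 to 496 (median 194), against 4227, 3620 and 3844 in WT, and fell by 3.91 on the log2 scale. The maltase gene Mal-A1 had 199 to 302 (median 215), against 2104, 1957 and 1914 in WT, and fell by 2.99 on the log2 scale. For each of the 3 genes the highest mutant array was far below the lowest WT array. betaTry (-3.30) and the aspartyl protease gene Bace (-4.18) fell too, and Jon65Aii, below background in all mutants, was at least 1.98-fold lower.

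Summed over the 22 tested midgut genes, signal on the mutant arrays was 13.7% to 17.9% of the WT mean. All 22 genes were above background on every WT array, and 8 were above it on every mutant array. A gene was tested if 3 arrays lay above the 40th percentile, so genes dim in the mutants could enter through WT alone. The WT part of this count therefore follows in part from the filter, which 22 of the 24 list members on the array passed. In whole ovaries and what is dissected with them, fewer cells of a type and less RNA per cell cannot be told apart, and whether gut tissue was present in different amounts was not tested.

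Markers of other tissues were lower in the mutants by smaller amounts. Of 19 muscle sarcomere genes tested, 16 fell, each with every mutant array below every WT array, and the median change was -0.93. The sums of these genes were 49.6% to 57.8% of the WT mean. TpnC41C, a troponin C, had 31.2 to 81.8 on the mutant arrays (median 55), against 233, 278 and 282 in WT, and fell by 1.95 on the log2 scale. sls, which encodes a titin-like protein, fell by 1.62, bt, the projectin gene, by 1.39, Obsc, the obscurin gene, by 1.30, Mlc2 by 1.25, Act87E by 1.18 and Tm2, a tropomyosin gene, by 1.08. TpnC4 differed in the other direction (0.63), and that call was lost on the deposited values and without WT replicate 2 or 3.

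Basement membrane and hemocyte genes followed. None of the 13 matrix genes tested rose and 9 fell (median -0.46). Ppn, the papilin gene, had 4937 to 7720 on the mutant arrays (median 6178), against 14174, 14405 and 13582 in WT, and fell by 1.19 on the log2 scale (limma, adjusted p = 8.41e-08). if, an integrin alpha subunit gene, fell by 1.18, trol, the perlecan gene, by 0.92 and LanA, a laminin chain gene, by 0.78, while 1 of the other probe sets of trol gave 0.11. Of 13 hemocyte markers tested, 7 fell and 2 were called higher, with a median of -0.41 and sums of 66.5% to 86.7% of the WT mean. The higher genes were lz (0.72), whose call was lost when scaled to the hybridization controls and without the Pb/2 arrays, and Pxn (0.42), which gave -0.12 when scaled to the hybridization controls. Hemocytes are the blood cells of the fly, and they make much of its basement membrane.

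The phagocytosis receptor gene NimC4 had 121 to 638 on the mutant arrays (median 307), against 1552, 1890 and 1734 in WT, and fell by 2.32 on the log2 scale. NimC1 fell by 1.45, eater by 1.34 and Hml, the hemolectin gene, by 1.44, although the call of Hml was lost without WT replicate 2 (limma, adjusted p = 0.058). NimC1 and eater were nearer to WT in f/v (-0.38 and -0.49) than in 2/v (-2.07 and -1.97) and Pb/2 (-1.92 and -1.55).

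Among fat body markers more members were lower than higher. Of 8 fat body markers tested, 5 fell and 1 rose, with sums of 51.9% to 69.6% of the WT mean. Fbp1, a hexamerin receptor gene, had 437 to 951 on the mutant arrays (median 495), against 1586, 1511 and 1486 in WT, and fell by 1.35 on the log2 scale, while Fbp2 fell by 1.17 and Lsp2, a hexamerin gene, by 0.94. The exception was fit, a female-specific gene of the fat body linked to feeding, which was below background in WT and at least 2.33-fold higher in the mutants. Of 34 cuticle protein genes tested, 10 fell (29.4%, against 21.1% of all genes) and 2 rose, with a median of 0.0025. Of the 10 falls, 9 were at least 2-fold, among them Cpr49Ae (-2.65) and Cpr65Au (-2.65). Cpr100A was below background on every mutant array and at least 2.42-fold lower.

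After quantile normalization, the summed signal of germline markers did not share this shift. The summed signal of the 8 germline markers on the mutant arrays was 95.1% to 111.6% of the WT mean. Most of this sum came from osk, orb and zpg (24691, 14818 and 9453 in WT), so it says little about the dimmer markers. Of the 8, vas (-0.27), bam (-0.32) and otu (-0.32) were called lower and aub (0.25) higher. The calls of vas, bam and otu were lost under array median subtraction and without WT replicate 3 (vas and otu also without replicate 1, bam without replicate 2), and aub gave -0.12 when scaled to the hybridization controls. Neuronal marker genes were dim, with 1 of 5 above background on all WT arrays, and their sums, most of which is elav signal in WT, ranged from 50.4% to 96.6% of the WT mean. elav was called lower (-1.09), nSyb (0.70) and ChAT (0.86) were called higher, and brp and para were not called. The calls of nSyb and ChAT were lost on the deposited values, when scaled to the hybridization controls and without the 2/v arrays (limma, adjusted p = 0.29 and 0.79). Among WT arrays, that of nSyb was lost without replicate 2 and that of ChAT without replicate 1 or 3. Sums of the testis genes ranged from 67.2% to 108.2%. Of the 11 tested, 7 were above background on all WT arrays, and twe was the brightest in WT (1468).

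**Figure D3:**
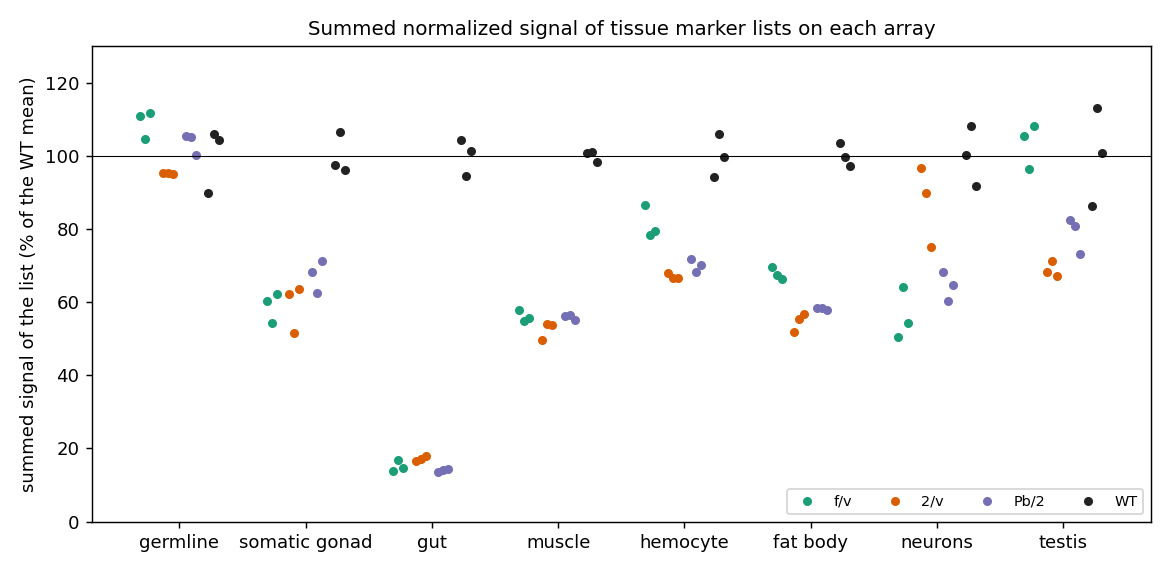
Each point is the summed normalized signal of a list of tissue markers on 1 array, as a percentage of the WT mean, by genotype. Gut sums lie at 13.7% to 17.9% in the mutants, muscle sums near 50% to 60% and germline sums around 100%.

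Most of the genes tested that mark the somatic cells of the ovary fell too. Of 13 follicle cell and somatic gonad genes tested, 9 fell and none rose (median -0.58), and for 8 every mutant array was below every WT array. cas, a zinc finger factor of polar and stalk cell precursors, had 275 to 704 on the mutant arrays (median 391), against 1055, 1369 and 1032 in WT, and fell by 1.46 on the log2 scale (limma, adjusted p = 3.74e-05). zfh1 fell by 1.03 and mirr, an Iroquois factor of the anterior follicle cells, by 1.05, while a further probe set of mirr gave -0.39 and was not called. eya fell by 0.53, a call lost under array median subtraction. The somatic gonad marker tj did not fall: it averaged 324 (f/v), 411 (2/v) and 355 (Pb/2), against 309 in WT. Its change of 0.22 was not called (limma, adjusted p = 0.154). The summed signal of 5 somatic gonad markers, of which eya was the brightest in WT (8014), was 51.7% to 71.3% of the WT mean on the mutant arrays. This sum overlapped in range with that of the fat body and muscle lists. How far these falls reflect the number of somatic cells was not tested.

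Septate junction genes seal epithelia. Of 15 tested, 8 were lower (53.3%, against 21.1% of all genes) and 2 higher (13.3%, against 22.6%). Their median of -0.30 narrowed to -0.14 under array median subtraction. cora and nrv2 fell by 1.04 each, whereas vari, a scaffold protein gene of the same junction, rose by 1.06. The other rise was nrv3, described below. elav, the neuronal RNA-binding protein gene related to Rbp9, fell evenly, by 1.09, 1.10 and 1.08 in f/v, 2/v and Pb/2, with 302 to 466 on the mutant arrays (median 374), against 906, 892 and 682 in WT.

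Germline genes were called in both directions. Of 17 germline stem cell and differentiation genes tested, 4 were higher and 6 lower (58.8% called, against 43.7% of all genes), whereas with the array median subtracted 8 were higher and none lower. Besides ovo and Rbp9, the larger rise was that of tut, an RNA-binding partner of Bam and Bgcn in the testis. tut had 3101 to 6235 on the mutant arrays (median 3974), against 1237, 1441 and 1249 in WT, and rose by 1.71 ± 0.08 (limma, adjusted p = 8.82e-08), in all mutants (1.40, 2.10 and 1.62).

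BMP signalling keeps germline stem cells undifferentiated. Of 9 genes tested, 4 were called higher (44.4%, against 22.6% of all genes) and 1, dpp, lower (11.1%, against 21.1%). Scaled to the hybridization controls, 1 was higher and 5 lower. Dad, the inhibitory Smad that the pathway itself induces, had 631 to 1015 on the mutant arrays (median 729), against 242, 282 and 273 in WT, and rose by 1.48 ± 0.11. Mad, the signal-transducing Smad, was higher by 0.69, a call lost when scaled to the hybridization controls. Its partner Med (0.46) and magu (0.32), which encodes a secreted regulator of BMP range, gave -0.20 and -0.27 under that scaling, and magu lost its call when any 1 WT array was left out. dpp, the ligand gene, fell by 0.73, a call lost without the 2/v arrays (limma, adjusted p = 0.074).

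The piRNA pathway silences transposons in the germline. Of 24 of its genes tested, 5 were higher (20.8%, against 22.6% of all genes) and 7 lower (29.2%, against 21.1%). The counts were 9 and 3 with the array median subtracted, and 1 and 19 when scaled to the hybridization controls. Of 19 genes of meiotic recombination, 3 were higher (15.8%) and 4 lower (21.1%), or 1 and 14 when scaled to the hybridization controls. rhi, the heterochromatin protein that marks piRNA source loci, had 1545 to 3756 on the mutant arrays (median 2114), against 1030, 1025 and 1085 in WT, and rose by 1.16 ± 0.06, most in 2/v (1.78). Its partner gene moon rose by 0.63, which was lost when scaled to the hybridization controls. SoYb, a Tudor domain gene of follicle cells, fell by 0.99 and nxf2, which acts in piRNA-guided transcriptional silencing, by 0.71.

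Parts of the synaptonemal complex, which pairs homologous chromosomes, moved in opposite directions. c(2)M rose by 1.47 ± 0.16, with 1438 to 2552 on the mutant arrays (median 2185), against 608, 670 and 999 in WT. cona fell by 1.39, with 826 to 1199 (median 913), against 2861, 2301 and 2458 in WT. The chromokinesin gene nod rose by 0.85, a call lost when scaled to the hybridization controls. Of 19 DNA damage genes tested, 7 were higher (36.8%, against 22.6% of all genes) and 4 lower (21.1%, as among all genes). Scaled to the hybridization controls, 0 were higher and 12 lower. mre11, which processes double-strand breaks, was lower by 1.00. Of 20 oocyte localization and axis genes, 7 were higher and 3 lower (1 and 13 when scaled to the hybridization controls), led by plu, an activator of the egg's pan gu kinase, at 0.85.

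Eggshell genes split the mutants rather than setting WT apart. Of 19 chorion and vitelline membrane genes tested, 5 were called higher and 10 lower in the mean, but 15 differed among the mutants, and none of the 10 falls had every mutant array below WT. Cp19 averaged 8005 (f/v), 412 (2/v) and 251 (Pb/2), against 5912 in WT. Cp18 averaged 5185, 188 and 216 in f/v, 2/v and Pb/2, against 1824 in WT. Cp16 (3637, 154 and 189, against 2592 in WT) and Femcoat (1140, 58.6 and 76.5, against 1123 in WT) had the same order. In all 4 genes f/v was at or above WT and the sterile genotypes were far below it. Whether the genotypes held egg chambers of the same stages was not tested. Yp1, a yolk protein gene, rose by 0.34 in the mean, which was lost when scaled to the hybridization controls.

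Ecdysone is the steroid that times egg chamber growth. Of 18 genes of its synthesis and response tested, 9 were higher and 3 lower (median 0.27), but under scaling to the hybridization controls 1 was higher and 9 lower. The member that stood out was phtm, the Cyp306a1 hydroxylase of ecdysone synthesis. phtm had 821 to 1248 on the mutant arrays (median 901), against 172, 126 and 118 in WT, and rose by 2.64 ± 0.10 (limma, adjusted p = 2.26e-08), by 2.87, 2.55 and 2.52 in f/v, 2/v and Pb/2. The rises of spo (0.77) and sad (0.74), which act in the same synthesis, were lost when scaled to the hybridization controls. br, a transcription factor induced by ecdysone, fell by 0.66, whereas 1 of its other probe sets gave 0.15.

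Stress and immune genes were mixed. Of 13 immune genes tested, 5 were higher (38.5%, against 22.6% of all genes) and 3 lower (23.1%, against 21.1%). Scaled to the hybridization controls, 2 were higher and 8 lower. Def, the defensin gene, had 101 to 811 on the mutant arrays (median 329), against 72.7, 86.9 and 15.4 in WT, and rose by 2.46 ± 0.33, and Mtk, the metchnikowin gene, rose by 1.61. In contrast PGRP-SC2, a peptidoglycan amidase gene active in the gut, fell by 2.32 and Drs, the drosomycin gene, by 1.15. Of 9 heat shock and Turandot genes, 5 were lower and 1 was higher. stv, a co-chaperone gene, fell by 1.18, Hsp68 by 1.08 and DnaJ-1 by 0.73, while the rise of TotC in the mean rested on 2/v and Pb/2.

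Genes of detoxification families were called in both directions. Of 64 cytochrome P450 genes tested, 15 were higher (23.4%, against 22.6% of all genes) and 22 lower (34.4%, against 21.1%). Scaled to the hybridization controls, 5 were higher and 39 lower. Of 32 glutathione S-transferase genes, 11 were higher (34.4%) and 7 lower (21.9%), or 7 and 14 when scaled to the hybridization controls. GstE7 had 724 to 3050 on the mutant arrays (median 1656), against 239, 183 and 171 in WT, and rose by 2.94 ± 0.11, and GstE1 rose by 2.16. GstZ1 fell by 3.04, with 66.4 (f/v), 719 (2/v) and 621 (Pb/2), against 2721 in WT. Cyp6a20 was the most even of the large falls, with 146 to 224 on the mutant arrays (median 167), against 747, 887 and 729 in WT, a change of -2.09, -2.05 and -2.08 in f/v, 2/v and Pb/2.

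Of 28 genes for ion channels and transmitter receptors tested, 12 were higher (42.9%, against 22.6% of all genes) and 6 lower (21.4%, against 21.1%). Scaled to the hybridization controls, 5 were higher and 13 lower. A pair of potassium channel genes rose in all mutants. sei had 7186 to 8616 on the mutant arrays (median 7759), against 2614, 2515 and 2543 in WT, and rose by 1.61 ± 0.05, and Irk3 rose by 1.40 ± 0.06. Of 15 genes of synaptic vesicle release, 4 were higher (26.7%) and 3 lower (20.0%), near the shares of all genes. Scaled to the hybridization controls, 1 was higher and 8 lower. Among the 15, Rph was the 1 that rose by more than 2-fold.

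Chromatin genes were lower more often than higher. Of 15 insulator and boundary proteins tested, none rose and 5 fell (33.3%, against 21.1% of all genes), su(Hw) among them, but with the array median subtracted 2 were higher and 1 lower. Cp190 fell by 0.46 and Ibf1 by 0.33, and both calls were lost under array median subtraction. Caf1-55, a histone chaperone subunit shared by several chromatin complexes, fell by 2.08, with 1445 (f/v), 1398 (2/v) and 5735 (Pb/2), against 9598 in WT. Of 15 Polycomb group genes, 7 fell (46.7%) and 1 rose (3 and 2 with the array median subtracted), and next to Caf1-55 the largest fall was that of Psc, by 0.58. Cytoplasmic ribosomal protein genes were called in 6 of 35, 4 higher and 2 lower, but 30 were called higher on the values as deposited.

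**Figure D4:**
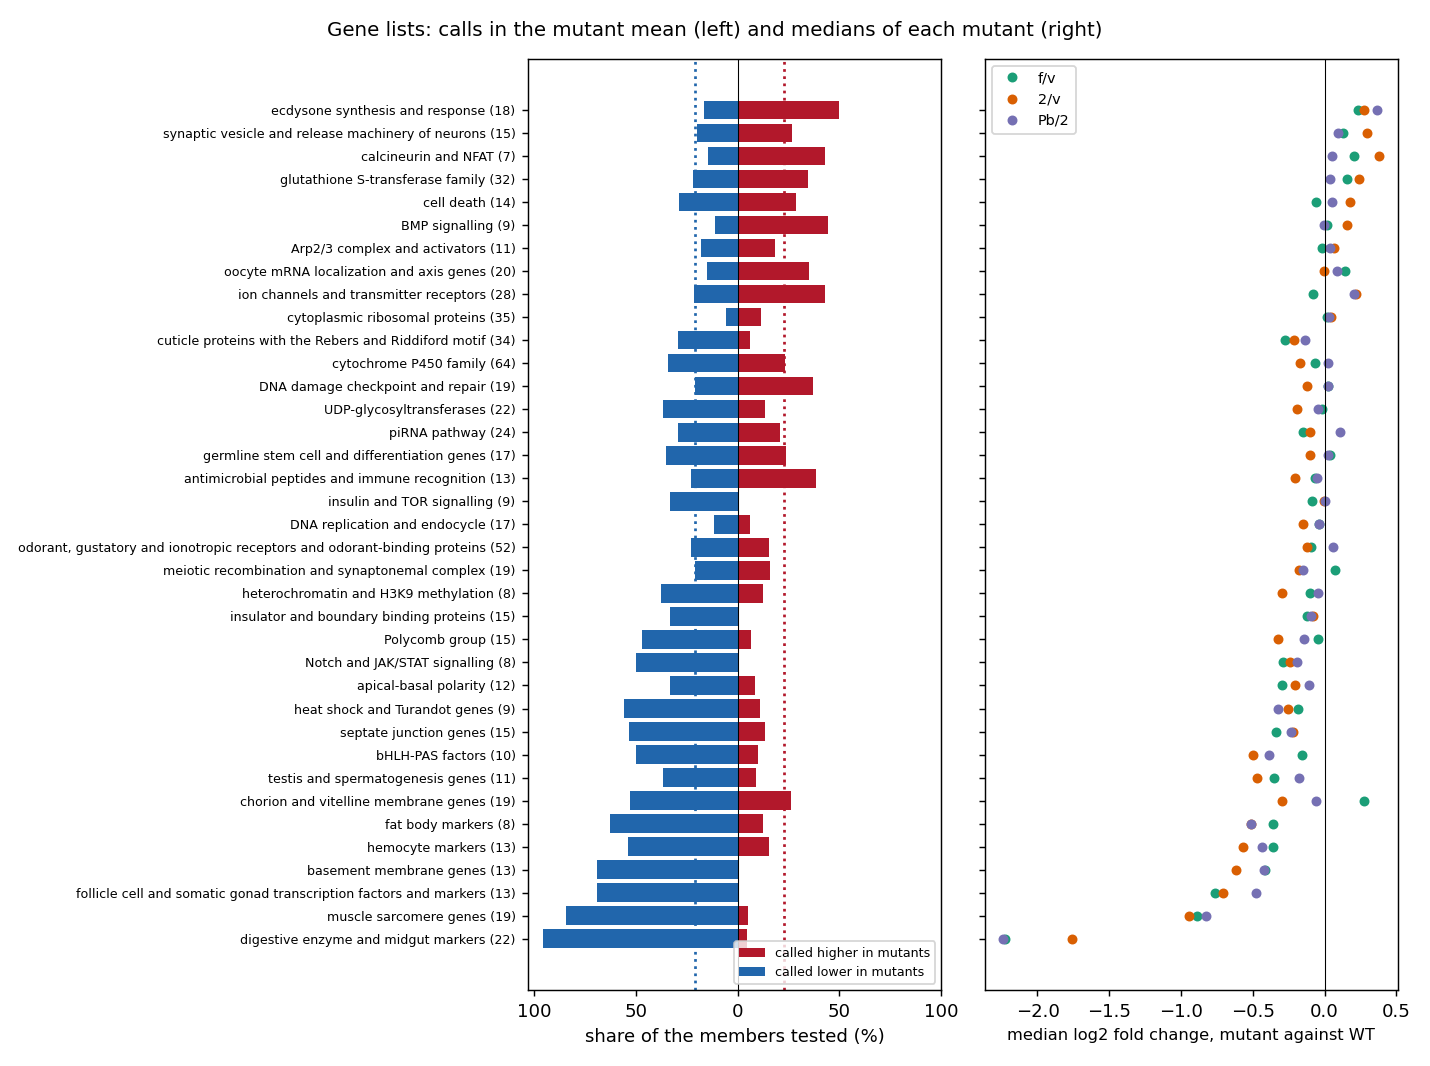
Left, the share of tested members of each gene list called higher (red, to the right) or lower (blue, to the left) in the mean of the mutants, with dotted lines at the shares for all genes, 22.6% and 21.1%. Right, the median log2 fold change of the list in f/v, 2/v and Pb/2. Digestive enzymes lie near -2 in all 3 mutants, followed by muscle, follicle cell and basement membrane genes, and the median of the eggshell genes is above 0 in f/v and below it in 2/v and Pb/2.

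Other large falls were of genes with less known roles. CG42565 had 43.8 (f/v), 330 (2/v) and 608 (Pb/2), against 8225 in WT, and fell by 5.15 on the log2 scale, the largest fall. CG34227 had 7.26 to 89.4 on the mutant arrays (median 40.3), against 1752, 1601 and 1707 in WT, and fell by 5.10. CG6295 had 3.76 to 70.4 (median 34.7), against 810, 756 and 870 in WT, and fell by 4.26. Most mutant arrays were below background for CG34227 and CG6295, and for CG42565 the f/v arrays alone were. CG12374 was below background on every mutant array and was at least 6.91-fold lower, and CG4734 at least 5.32-fold lower. Nplp3, a neuropeptide-like precursor gene, fell by 3.65, and CG14275 changed by -3.83.

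Several falls were led by 1 or 2 of the mutants. CG4210 had 17.5 in f/v and 20.8 in 2/v but 927 in Pb/2, against 1628 in WT. Zip102B, of the ZIP zinc transporter family, had 75.0 (f/v), 1926 (2/v) and 77.9 (Pb/2), against 2428 in WT. Genes of the lysosomal alpha-mannosidase family, LManIII, LManV and LManVI, fell least in f/v (-0.83, -1.31 and -0.65), more in 2/v (-1.88, -2.39 and -2.28) and most in Pb/2 (-3.66, -4.29 and -4.28). The order of the genotypes thus differed from gene to gene.

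In some called genes the mean came from a single genotype. ss, a bHLH-PAS transcription factor of antenna and eye, averaged 1991 in f/v, but 6.53 in 2/v and 8.93 in Pb/2, against 3.87 in WT. Cyp4p2 averaged 1555 in Pb/2, but 26.2 in f/v and 33.7 in 2/v, against 17.9 in WT. CG31219 averaged 1000 in Pb/2, with f/v, 2/v and WT below background. Such genes were far from WT in 1 mutant and at background in the others, so they do not set WT apart from every mutant.

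At 339 of the 3977 called genes the mutant means lay on both sides of WT. This count takes only the sign of each mutant change, so changes that are small, not called or below background are included. Tektin-C, of a family of microtubule proteins of cilia and flagella, averaged 533 in f/v and 724 in 2/v but 13 in Pb/2, against 44.3 in WT, so that Pb/2 and WT were both at or near background and their order there is uncertain. nrv3, a subunit gene of the sodium pump, averaged 981 (f/v), 17141 (2/v) and 18077 (Pb/2), against 2835 in WT.

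**Figure D5:**
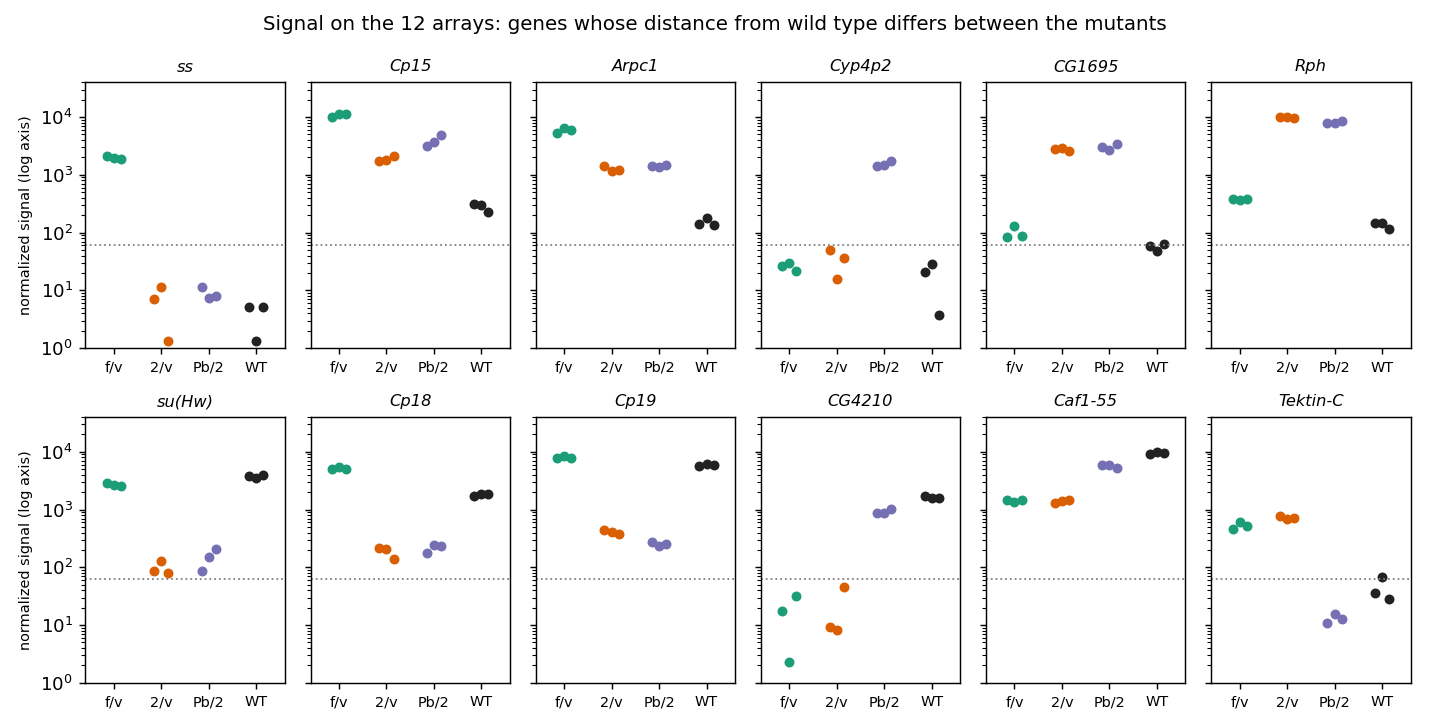
Normalized signal (log axis) of 12 genes whose distance from WT differs between the mutants, 1 point an array, by genotype, and the dotted line marks background. ss is high in f/v alone and Cyp4p2 in Pb/2 alone, Rph and CG1695 are high in both sterile genotypes, and the chorion genes Cp18 and Cp19 are low in both sterile genotypes and not in f/v.

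Some genes crossed the background level between WT and the mutants. Such genes could pass the filter through the side on which they were bright. In 19 genes all WT arrays were below background and all mutant arrays above it, and 11 of these differed among the mutants. In 36 genes all mutant arrays were below background and all WT arrays above it, and 3 of these differed among the mutants. Mutant signals held below background have little room to differ, so this count cannot be set against that of the 19. Genes known only by a CG number made up 57.9% of the 19 and 52.8% of the 36, and 38.3% of all genes tested.

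Neighbours on the chromosome, taken from gene order in the RefSeq assembly Release 6 plus ISO1 MT, often changed in the same direction. In 157 pairs of a large rise and a tested gene next to it, the neighbour was called higher in 59 (37.6%, against 22.6% of all genes). It was called lower in 26 (16.6%). In 170 pairs of a large fall and a tested gene next to it, the neighbour was called lower in 69 (40.6%, against 21.1%) and higher in 25 (14.7%). A gene can enter more than 1 pair, and large changes that lie side by side count each other, which raises the shares called the same way. Of the nearest 5 tested genes on either side of su(Hw), 5 in all were called, a share near the 43.7% of all genes. Set8, a histone H4 methyltransferase gene, fell by 0.50, MetRS-m, a mitochondrial tRNA synthetase gene, by 0.77 and the homeobox gene NK7.1 by 1.00. ATPsynE (-0.14) and Dnaaf5 (0.22) were called too, but their direction turned round on the values as deposited.

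Genes with several probe sets show how far a call depends on the probes. Of 438 other probe sets of 312 called genes, 153 were called in the same direction, 34 in the opposite one and 251 not at all, and 328 had the same sign. For genes with at least 2-fold changes, the counts over 92 other probe sets were 42, 7 and 43. gkt, a DNA repair phosphodiesterase gene, gave 2.06 and 0.27 with its probe sets, both called. Of the 129 with a mean signal above 500, 64 were called in the same direction and 15 in the opposite one. For genes with at least 2-fold changes there were 14 such bright probe sets, with 5 called in the same direction, 3 in the opposite one and 6 not called.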

How the data were processed

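Ovary RNA, amplified with the NuGEN Ovation SPIA method from 50 ng, was hybridized to 12 Affymetrix Drosophila Genome 2.0 arrays, and the authors deposited 1 intensity per probe set, made with GCOS per the submitters' processing notes. In these deposited intensities the mean of each array, trimmed by 2% at each end, was 1500. Array number and not depth limits precision.

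From these values 183 control probe sets were removed, log2(signal + 16) was taken and arrays were quantile normalized, because array medians differed by more than 0.1. Probe sets above the 40th percentile of an array in at least 3 arrays were kept (12618), and of the 13647 probe sets with a single gene symbol the brightest of each gene was used (9109 genes). Probe sets with several symbols (402) or none (4720) were left out. Symbols come from the platform annotation and were updated through the RefSeq gene table where they matched (13544 probe sets). Background was set from 27 bacterial control probe sets, at their 95th percentile.

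limma 3.58.1 (R 4.3.3) was fitted to 4 group means, with the contrast of the mean of the 3 mutants against WT and an F test among the mutants, each with Benjamini-Hochberg adjustment at 0.05. Where all arrays of a side were below background, the fold is a lower bound: the mean log2(signal + 16) of the other side minus that of the dim side with each of its arrays set to background. On simulated data of 9109 genes, 66.8%, 88.8%, 98.8% and 100% of genes changed by 0.5, 1, 2 and 3 (log2) against WT were called. Of the calls, 4.2% were false. The simulation changed 200 genes evenly in all 3 mutants and 200 others in f/v alone, with independent noise. Many more genes were called in the data, often unevenly among the mutants, so these rates need not hold there. Alternatives were the scaling, offset (1 and 64), filter, probe set choice, variance model, threshold, a replicate block and leaving out arrays or genotypes.

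Named genes are su(Hw) and Rbp9, the largest, most even and most uneven changes, up to 4 called members of each gene list, genes that cross background and neighbours of su(Hw). The comparison, the rule and the lists were chosen with earlier results of these data known. sina, tipE, Hesr, f, Mal-A1, gkt, Jon44E, TpnC4, Tm2, Act87E, Mlc2, eya, tj, vas, bam, otu, aub, magu, Pxn, lz, Elo68beta, Zip102B and the LMan genes fall outside the rule and were added after their values had been seen. Same-numbered replicates shared no deviation: correlations over 18 pairs were -0.15 to 0.0987, none above 0.1. Nearest patterns by correlation and promoter motifs were not analysed here.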

Additional observations from a re-analysis of the deposited data

Results flagged for a closer look

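The range of the 3 mutant group means is given here on the log2 scale for genes called against WT in which the mutants differed (F test in limma, adjusted p below 0.05) and their means lay on both sides of WT. The range was 4.91 for Cp19, 4.69 for Cp18, 4.44 for Cp16 and 4.01 for Femcoat, all eggshell genes that were high in f/v and low in 2/v and Pb/2. It was 4.67 for Tektin-C, which was high in f/v and 2/v and at or near background in Pb/2 and WT, so that both this range and the order of Pb/2 and WT are uncertain, and 4.19 for nrv3, which was lower than WT in f/v and higher in 2/v and Pb/2. It was 3.09 for TotC, which averaged 55.0 (f/v), 596 (2/v) and 354 (Pb/2), against 127 in WT. It was 1.78 for Rbp9, which was lower than WT in f/v alone, and 1.23 for Jon44E, which was lower than WT in Pb/2 alone. It was 1.52 for nSyb, which was at background in f/v and WT. Smaller ranges were found for magu (0.91), bam (0.59) and Pp2B-14D (0.36). A mean over the mutants does not describe any one genotype at these genes.

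Probe sets without a gene symbol were not part of the comparison above. Of 2237 such probe sets tested, 483 were called in the mean of the mutants against WT (21.6%, against 43.7% of the named genes). At 15 of them the mutants were at least 4-fold higher with all arrays apart, the largest change being 4.06, and at 6 they were at least 4-fold lower, the largest being -4.67.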

How the results depend on the processing

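Of 145 named genes recomputed under all alternatives (3752 pairs of a gene and a setting), 3619 pairs kept direction and call, 119 lost the call and 14 changed direction. For 109 genes every setting gave the same call.

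With the array median subtracted, 3393 genes were called higher. Scaled to the hybridization controls, 6544 genes were called, 425 higher and 6119 lower, and 4226 had all mutant arrays on one side. A change of at least 2-fold left 816 genes, 381 higher and 435 lower, with 678 on one side and 741 in the F test. Differences among the mutants numbered 1730 at an adjusted p below 0.01, 1579 without the f/v genotype and 1821 without the 2/v genotype. Leaving out each array in turn gave 3032 to 3897 genes called, 1586 to 2006 higher, 1446 to 1896 lower, 2259 to 2776 on one side, 2587 to 3209 differing among the mutants, and -3.47 to -3.28 for su(Hw). With the replicate number as a block, 3544 genes were called, 1822 higher and 1722 lower, although the numbers did not pair the samples, and 3 arrays correlated best with their own number.

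Directions reversed for the other probe sets of CanA-14F (-0.49), f (-0.12), trol (0.11) and br (0.15). Outside the 14 pairs, another probe set of dlg1 gave 1.08, against -0.46. They reversed on the deposited values for ATPsynE (0.0274) and Dnaaf5 (-0.0231), with the array median subtracted for ATPsynE (0.26) and Pp2B-14D (0.10), and with hybridization controls for Dnaaf5 (-0.44), Jon44E (-0.0386), aub (-0.12), Med (-0.20), magu (-0.27) and Pxn (-0.12). The cause was not tested. Dim signals limit the folds of genes near background.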

Other observations

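Further gene groups were described in the same contrast. Of 12 apical-basal polarity genes tested, l(2)gl was the only one called higher and 4 were lower, none by 2-fold, while with the array median subtracted 3 were higher and none lower. The polarity gene dlg1 was called at -0.46 (limma, adjusted p = 0.0218). Another of its probe sets, at a mean signal of 2916, gave 1.08 (limma, adjusted p = 1.56e-06), with every mutant array above WT. Of 4 very long chain fatty acid elongases, 3 were called higher, led by Elovl7. Elo68beta, a further elongase gene that was not in the list, had 6.86 to 73.3 on the mutant arrays (median 35.5), against 270.1, 373 and 278 in WT, and fell by 2.70 on the log2 scale (limma, adjusted p = 2.18e-05). Of 8 Notch and JAK/STAT genes, 4 fell, among them kuz, a protease that cleaves Notch, by 0.54 and fng, which adds sugar to Notch, by 0.49, each with all mutant arrays below WT. Of 10 bHLH-PAS factors, 5 fell and 1 was higher, ss, which was high in f/v alone. The fall of tai, a steroid receptor coactivator of border cells, was 0.65.

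Cell death genes were called higher in 4 and lower in 4 of 14 (28.6% each way, 0 and 10 genes when scaled to the hybridization controls). Damm, a caspase gene, fell by 1.43 on the log2 scale, with -1.61, -1.86 and -0.82 in f/v, 2/v and Pb/2. Of 8 heterochromatin genes, 3 were lower and 1, HP1c, was higher (0.54), a call lost when scaled to the hybridization controls. Of 17 DNA replication genes, 1 was higher and 2 lower (17.6% called, against 43.7% of all genes). Of 9 insulin and TOR genes 3 were lower (33.3%). Of 52 receptor and odorant-binding protein genes of smell and taste, 8 were called higher (15.4%, against 22.6% of all genes). Called lower were 12 (23.1%, against 21.1%). Of 22 UDP-glycosyltransferases, 3 were higher (13.6%) and 8 lower (36.4%). Of 11 testis genes, 1 was higher (9.1%) and 4 lower (36.4%).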
